A study of Mus musculus with 12 samples.

Results

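The comparison described here set the kidneys of mice treated, by antibody, against G-CSFR (the receptor of the granulocyte growth factor G-CSF) before ischaemia-reperfusion injury (IRI) against those of mice given an isotype control antibody. Its members were chosen by the sample titles alone: 3 anti-G-CSFR kidneys (kidneys 7, 8 and 9; antibody labelled VR81) and 3 isotype kidneys (kidneys 4, 5 and 6), which makes 6 of the 12 libraries of the series, over all 13124 genes of the deposited count table. All 6 were from male C57BL/6 mice and had undergone IRI: blood flow to the kidney was cut off for a time and then let back in. The antibody was given 24 h before IRI and the kidneys were taken 24 h after it, flushed with saline, and lysed whole, so that RNA came from all their cells. The series was built on unilateral warm IRI, and the labels do not state which kidney of a mouse was taken. The other 6 libraries were from sham-operated, otherwise untreated kidneys (kidneys 1, 2 and 3), which had received no antibody, and from IRI kidneys given an antibody against complement C5 (kidneys 10, 11 and 12; labelled BB5.1). They served as background. The labels give neither the age of the mice nor any genetic change.

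G-CSF is the cytokine that drives bone marrow to make and release neutrophils, and its receptor, encoded by Csf3r, sits mainly on neutrophils and their precursors. Neutrophils enter a kidney within hours of reperfusion. The cells hit hardest by ischaemia are those of the proximal tubule, which depend on mitochondrial oxidation of fatty acids to drive reabsorption and which, when injured, lose their transporters and switch on keratins, matrix genes and stress genes. In whole-kidney RNA, fewer cells of a type and less RNA per cell cannot be told apart.

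Between 13200930 and 14661421 reads per library were counted in kidneys 5, 6, 8 and 9, and 16324215 and 16268334 in kidneys 4 and 7. Of 13124 genes tested, 8334 (63.5%) were called at an edgeR Benjamini-Hochberg (BH) adjusted p below 0.05, 4137 of them higher under anti-G-CSFR (31.5%) and 4197 lower (32.0%). Of these, 1951 (14.9%) rose and 1330 (10.1%) fell by more than 2-fold. At more than 8-fold 239 genes rose and 142 fell, and at more than 64-fold 10 rose and 17 fell. With library totals in place of TMM factors, 3107 were higher and 5554 lower (35.87% of calls higher in place of 49.64%) and the median change of all genes moved from −0.02 to −0.23. Each direction given here is therefore one relative to TMM. In 8817 genes (67.2%) the groups did not overlap. These shares are the background for every count of list members below: a list with about 31.5% of its genes up, 32.0% down and a median log2 change near the −0.02 of all genes looks like the whole table. Of the 4790 genes not called, 2984 had a 95% interval of the change that lay within 1.5-fold either way. The labels do not say that the 3 kidneys of a group came from separate mice, so the p-values measure the spread between these samples. Levels below are in CPM, read counts scaled to library size, always in the order of kidneys 4, 5 and 6 for isotype and 7, 8 and 9 for anti-G-CSFR. Changes are log2 changes, anti-G-CSFR minus isotype, ± SE, and only called genes are said to have risen or fallen.

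**Figure D1:**
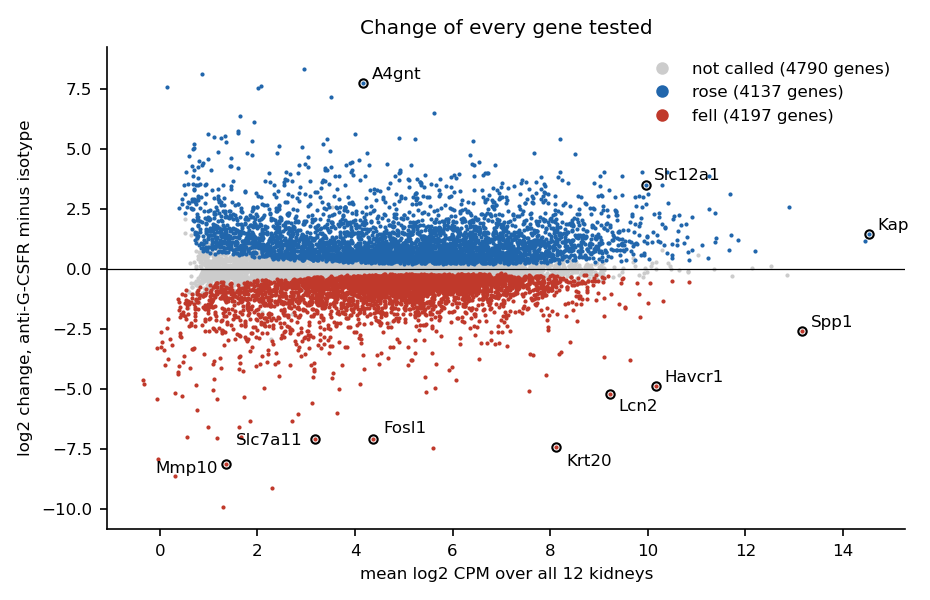
Log2 change of each of the 13124 genes tested (vertical axis, anti-G-CSFR minus isotype) against its mean log2 CPM over all 12 kidneys (horizontal axis), 1 point per gene, with 4137 called rises in blue, 4197 called falls in red and the 4790 genes not called in grey. Calls in both directions cover the whole range of levels, and 10 genes named in the text are circled.

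The gene of the targeted receptor was among those that fell. Csf3r (Entrez 12986, GRCm38 chromosome 4, 126024550 to 126044440) stood at 14.4, 6.88 and 12.8 CPM in the isotype kidneys and at 0.859, 0.224 and 1.06 CPM under anti-G-CSFR, without overlap (change −3.97 ± 0.943, edgeR BH-adjusted p = 0.00318). An antibody that binds a receptor leaves its gene in place, so this level is no check of the labels. Cxcr2, the chemokine receptor by which neutrophils follow CXC chemokines, was at 6.39, 4.61 and 12.0 CPM against 0.132, 0.0746 and 0. Kidney 9 held no Cxcr2 read. The markers with the smallest p were Retnlg, a resistin-like granulocyte gene (2.94, 3.32 and 11.4 against 0.132, 0.224 and 0.151 CPM), and Clec4d, a lectin receptor of myeloid cells (4.17, 4.98 and 7.01 against 0, 0.0746 and 0.0756). All 12 of 12 measured neutrophil markers fell (median −5.20), but 13 of the 25 genes listed were not in it. The isotype kidneys by themselves could carry a gene past the level of about 2 CPM that the table requires, so the count is set in part by that filter and is not read as support. Summed over the measured markers, the level was 110.3, 59.3 and 148 CPM in the isotype kidneys and 3.63, 2.46 and 3.56 under anti-G-CSFR, against 11.7, 10.4 and 9.11 in sham kidneys 1, 2 and 3. Every anti-G-CSFR kidney thus held less neutrophil marker RNA than every sham kidney. On the mean log2 scale they lay at −0.94, −1.30 and −0.97 relative to the sham mean, and no single marker passed the test against sham in the fit of 12 libraries.

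**Figure D2:**
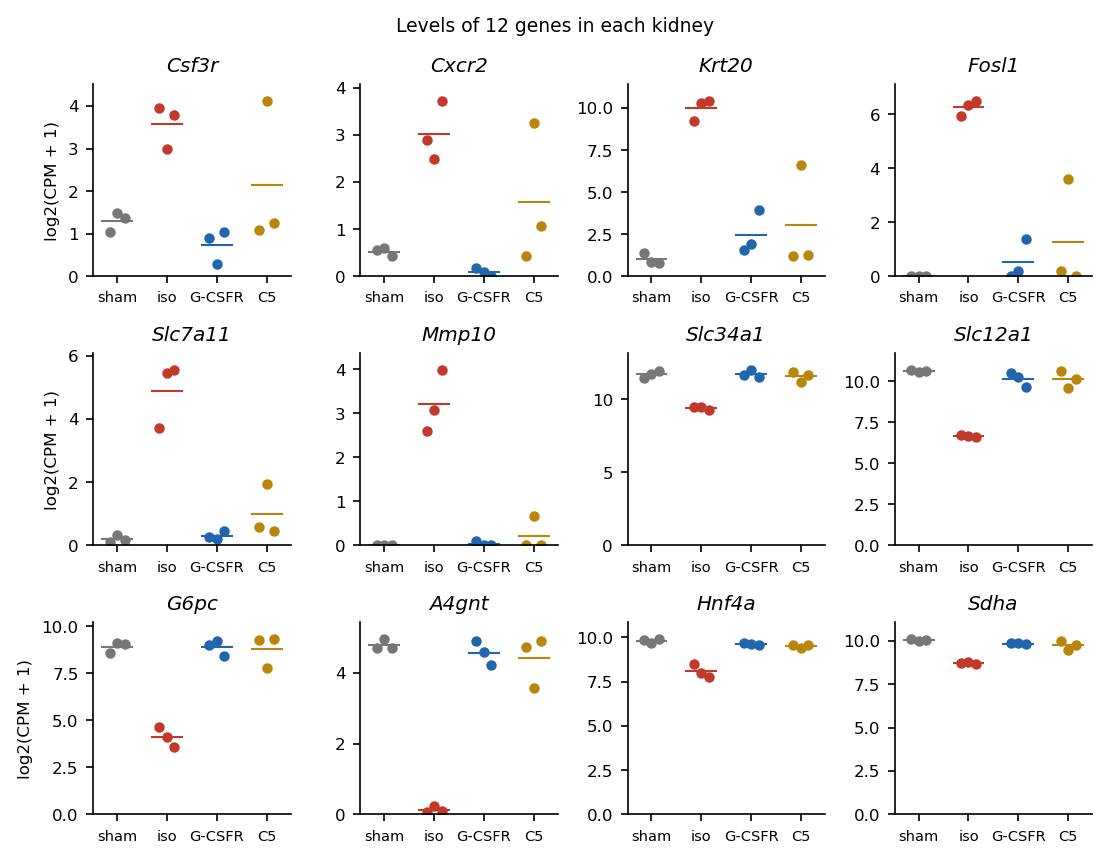
Levels of 12 genes in each of the 12 kidneys, as log2(CPM + 1) on the vertical axis, by group on the horizontal axis (sham, isotype, anti-G-CSFR, anti-C5), with 1 point per kidney and a bar at the group mean. The isotype points lie apart from the anti-G-CSFR points in all 12 panels, above them for the first 6 genes and below them for the last 6, and in Csf3r and Cxcr2 the anti-G-CSFR points also lie below the sham points, by very little for kidney 9 in Csf3r.

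The genes with the largest falls were nearly silent under anti-G-CSFR. Krt20 (GRCm38 chromosome 11, 99428403 to 99438150), a keratin of injured tubule cells, stood at 607, 1258 and 1331 CPM in the isotype kidneys and 1.92, 2.76 and 14.3 under anti-G-CSFR. Fosl1, a subunit of the transcription factor AP-1, stood at 61.1, 81.0 and 88.0 against 0, 0.149 and 1.59 CPM (change −7.09 ± 1.36, BH-adjusted p = 0.00169). In both, kidney 9 was the highest of its group and still far below every isotype kidney. Slc7a11 (GRCm38 chromosome 3, 49892526 to 50443614), the cystine importer that feeds glutathione synthesis, was at 12.0, 43.0 and 45.3 against 0.198, 0.149 and 0.378 CPM, a change of −7.07 ± 0.796 (adjusted p = 2.75e-05). Mmp10, a secreted matrix metalloproteinase, was read at 5.06, 7.43 and 14.7 CPM in the isotype kidneys and 0.0661, 0 and 0 under anti-G-CSFR, and Calcb, of the calcitonin family, at 4.22, 30.7 and 19.2 against 0, 0 and 0.0756 CPM. Slpi, a secreted inhibitor of neutrophil elastase, was at 9.05, 6.39 and 15.2 against 0, 0.149 and 0.0756 CPM. With so few reads on one side, no fold is given for Mmp10, Calcb and Slpi. The changes given for Fosl1 and Slc7a11 also rest on few anti-G-CSFR reads, so their size is uncertain. BC061237 and the predicted gene Gm7893 were also among the 10 largest falls, with Cxcr2 and Flnc, an actin crosslinker gene described below.

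Genes with the largest rises were those that the isotype kidneys had all but lost. A4gnt (GRCm38 chromosome 9, 99612502 to 99622367), a glycosyltransferase gene, stood at 0.0556, 0.184 and 0.0637 CPM in the isotype kidneys and 28.7, 23.1 and 17.6 under anti-G-CSFR, beside 26.6 ± 2.74 (SD, n = 3) in sham kidneys (change 7.74 ± 0.541, adjusted p = 3.03e-06). The size of this change rests on few isotype reads. Nat8f6, of a family of acetyltransferase genes whose reads may be shared between copies, was at 1.44, 0.246 and 0.446 against 57.7, 91.4 and 49.2 CPM. Prok1, a secreted prokineticin, was at 0.0556, 0 and 0 against 5.88, 4.85 and 5.67 CPM, again with almost no isotype reads. Fancd2os and the predicted genes Gm4208, Gm38967, Gm36139, Gm15348, Gm35993 and Gm906 filled the other places among the 10 largest rises.

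The most certain changes were smaller and tighter. By smallest p, the 5 leading rises were Gna14 (a G protein subunit, change 2.73 ± 0.125), Car14 (a membrane carbonic anhydrase of the tubule, 4.34 ± 0.228), Slc25a42 (the mitochondrial coenzyme A carrier, 2.98 ± 0.160), Fn3k (an enzyme that removes sugar from proteins, 3.92 ± 0.227) and Mgat3 (an N-glycan branching enzyme, 2.88 ± 0.172). The 5 leading falls were Ppp1r15a (the phosphatase subunit GADD34 that ends a block on translation, −2.16 ± 0.168), Phc2 (a polycomb protein, −1.29 ± 0.102), Ppp2r1b (a phosphatase scaffold, −1.05 ± 0.0844), Blcap (−1.19 ± 0.0961) and Slc2a1 (the general glucose transporter, −1.56 ± 0.127). Car14 was at 5.06, 6.57 and 6.24 CPM in the isotype kidneys and 98.3, 138 and 125 under anti-G-CSFR, and Ppp1r15a at 40.2, 51.1 and 63.8 against 9.91, 11.3 and 13.5. Neither gene overlapped between the groups, and the kidneys of each group lay close together.

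By the amount of RNA, the losses were led by Spp1 (osteopontin, a secreted phosphoprotein of injured tubules) and the gains by Kap, an abundant androgen-regulated gene of the proximal tubule. Spp1 stood at 23146, 27347 and 28860.4 CPM in the isotype kidneys and 1335, 1568 and 10424 under anti-G-CSFR (change −2.57 ± 0.904, adjusted p = 0.0258). Kidney 9 lay between the other treated kidneys and the isotype kidneys, and the call was lost without kidney 5, 6, 7 or 8 (BH-adjusted p = 0.0529, 0.0565, 0.0829 and 0.0873). Kap stood at 14582, 9846 and 8878 CPM against 36386, 36955 and 17834 (change 1.45 ± 0.320). The other 4 largest losses were Havcr1 (the injury marker KIM-1), Lcn2 (NGAL, which binds iron carriers), Plin2 (a coat protein of lipid droplets, 1774, 3429.6 and 2451 against 168, 152 and 232 CPM) and Srxn1 (sulfiredoxin, 1048, 1902 and 2323 against 137, 114 and 161). Next among the gains were Gpx3 (plasma glutathione peroxidase, made by the kidney, change 1.16 ± 0.172), Pck1 (the gluconeogenic enzyme PEPCK, 3.10 ± 0.318) and Keg1 (3.87 ± 0.478).

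Promoter windows from RefSeq (GRCm38.p6; 250 bases before to 50 after a start) matched 10428 of the 13124 genes tested. They were searched on both strands for 7 motifs, and a gene counts once however many windows it has. The AP-1 motif TGANTCA was in the windows of 6.54% of all matched genes and of 10.8% of the 1031 that fell by more than 2-fold. Among the 104 that fell by more than 8-fold, 22 (21.2%) held it, and it was in 7.80% of the 1525 that rose by more than 2-fold and 9.84% of the 183 that rose by more than 8-fold. The HNF4 motif CAAAGTCCA, of a tubule and liver transcription factor, was in 0.537% of all matched genes, in 1.25% of the 1525 that rose by more than 2-fold and in 0.485% of the 1031 that fell. At more than 8-fold it was in 5 of 183 rises (2.73%) and 2 of 104 falls (1.92%). For the other 5 motifs the shares of genes that fell by more than 2-fold, of those that rose by more than 2-fold and of all genes were, in this order, 16.1%, 15.6% and 14.5% for TEAD (GGAATG). They were 18%, 15.2% and 16.9% for the antioxidant response element (TGACNNNGC, which can overlap the AP-1 motif) and 7.47%, 6.49% and 6.36% for NF-kappaB. They were 2.62%, 2.16% and 3.36% for ATF/CREB (TGACGTCA) and 2.33%, 1.25% and 1.52% for the CArG box. At more than 8-fold the shares of falls and of rises were 17.3% and 16.4% for TEAD and 15.4% and 16.4% for the antioxidant response element. For NF-kappaB they were 6.73% and 5.46%, for ATF/CREB 0.962% and 1.09%, and for the CArG box 2.88% and 1.64%. A match is a run of letters and says nothing of binding. 

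The 250 bases before the start of Mmp10 and Srxn1, which fell, are shown because they carry the AP-1 motif, in capitals, and belong to genes named by rule. The AP-1 letters begin 63 bases before the start in Mmp10 (GRCm38.p6, chr9:7502092-7502341, plus strand), and 102 and 45 bases before it in Srxn1 (chr2:152105274-152105523, plus strand).
Mmp10: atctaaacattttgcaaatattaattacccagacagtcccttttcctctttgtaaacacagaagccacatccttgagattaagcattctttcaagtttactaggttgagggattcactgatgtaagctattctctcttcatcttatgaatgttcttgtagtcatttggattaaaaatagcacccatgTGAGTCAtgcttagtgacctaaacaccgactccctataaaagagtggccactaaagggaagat
Srxn1: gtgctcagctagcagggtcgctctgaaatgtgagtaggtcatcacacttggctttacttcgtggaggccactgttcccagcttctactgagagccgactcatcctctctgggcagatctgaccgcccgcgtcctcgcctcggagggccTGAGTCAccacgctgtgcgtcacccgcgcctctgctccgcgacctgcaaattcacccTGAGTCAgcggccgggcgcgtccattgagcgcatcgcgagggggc

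Genes that do the work of the tubule rose along the whole nephron. Of the proximal tubule markers, 21 of 22 rose and none fell, with a median change of 2.41. Slc34a1 (GRCm38 chromosome 13, 55398187 to 55415592), the phosphate transporter of the brush border, stood at 701, 725 and 627 CPM in the isotype kidneys and 3208, 4052 and 3044 under anti-G-CSFR, beside 3405 ± 523 in sham kidneys (change 2.33 ± 0.201, adjusted p = 7e-06). The 2 groups were far apart and the anti-G-CSFR kidneys lay around the sham level. Gatm, which makes the creatine precursor guanidinoacetate, rose by 3.85 ± 0.345. The amino acid carrier gene Slc7a13 and the lactate carrier gene Slc5a12 rose by 3.85 ± 0.469 and 3.58 ± 0.424. The marker that did not pass was Slc6a19, a neutral amino acid transporter, at 136, 241 and 289 against 225, 314 and 376 CPM. Its locus also holds the antisense gene Slc6a19os, which went the other way (−6.35); the strand setting of the counting is not given, so reads of this pair cannot be told apart.

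In the loop of Henle and distal tubule, 13 of 15 markers rose and none fell (median 1.70). Slc12a1 (GRCm38 chromosome 2, 125152505 to 125230002), the cotransporter for salt in the thick ascending limb, was at 106, 100.2 and 97.5 CPM against 1425, 1224 and 807, and the distal membrane protein gene Tmem52b changed by 2.09 ± 0.201. The exceptions were Umod, the uromodulin gene of the same segment, at 3260.4, 4957 and 4425 against 4369, 4124 and 4449.7 CPM (change 0.03 ± 0.165, adjusted p = 0.869), and the magnesium channel gene Trpm6 (0.42 ± 0.272, adjusted p = 0.198). Of these 2 genes of the thick ascending limb, the groups lay far apart in Slc12a1 and overlapped in Umod. Of collecting duct markers 11 of 18 rose and none fell (median 0.54), led by the ammonia channel gene Rhcg (1.99 ± 0.239) and the anion exchanger gene Slc4a1 (3.48 ± 0.433).

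Among the transporters, members for the same solute moved in opposite directions. In the glucose and phosphate list 11 of 14 rose and 2 fell (median 1.56). The fructose carrier gene Slc2a5 was at 5.72, 2.89 and 2.74 against 114, 107 and 88.5 CPM (change 4.75 ± 0.344) and the lactate carrier gene Slc5a8 at 23.6, 24.8 and 19.6 against 467, 357 and 284 (4.03 ± 0.343). The 2 that fell were Slc20a1 and Slc20a2 (−1.0 ± 0.265 and −0.93 ± 0.123), the phosphate transporters that most cells use for their own supply, whereas the reabsorbing transporter genes Slc34a1 and Slc34a3 rose (2.33 and 2.93). In the amino acid list 11 of 20 rose and 4 fell (median 1.52). The reabsorbing transporter genes Slc6a20b, Slc6a13 and Slc7a9 rose by 3.63 ± 0.258, 3.35 ± 0.220 and 2.30 ± 0.191. The 4 that fell were Slc7a5, Slc7a1, Slc3a2 and Slc1a5, carriers that growing cells use for uptake (−2.41, −1.90, −0.75 and −0.51). In the organic ion list 16 of 25 rose and 6 fell (median 1.35). All 6 falls were efflux pump genes of the ATP-driven Abcb and Abcc families, from Abcc3 (−2.0 ± 0.386) to Abcc5 (−0.75 ± 0.163), and 15 of the 16 rises were solute carriers such as Slco4c1 (4.02 ± 0.319) and Slc22a8 (2.13 ± 0.145); Abcg2, an efflux pump, was the other.

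In the list for salt, water and acid transport of the distal nephron, 33 of 39 rose and 1 fell (median 1.21). Not every member is distal. Aqp11, a water channel of proximal tubule endoplasmic reticulum, rose by 2.38 ± 0.187. The single fall was Nedd4l (−0.48 ± 0.121), the ubiquitin ligase that removes the sodium channel from the membrane. In the list for apical endocytosis, the uptake of filtered protein, 7 of 14 rose and 3 fell (median 0.27). The receptor genes Lrp2 and Cubn and the chaperone gene Lrpap1 rose (2.06 ± 0.244, 2.52 ± 0.304 and 1.77 ± 0.172). The 3 that fell were Ctsb, a lysosomal protease (−0.60), Rab11a, which steers recycling vesicles (−0.47), and Ocrl, a lipid phosphatase of the pathway (−0.37).

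**Figure D3:**
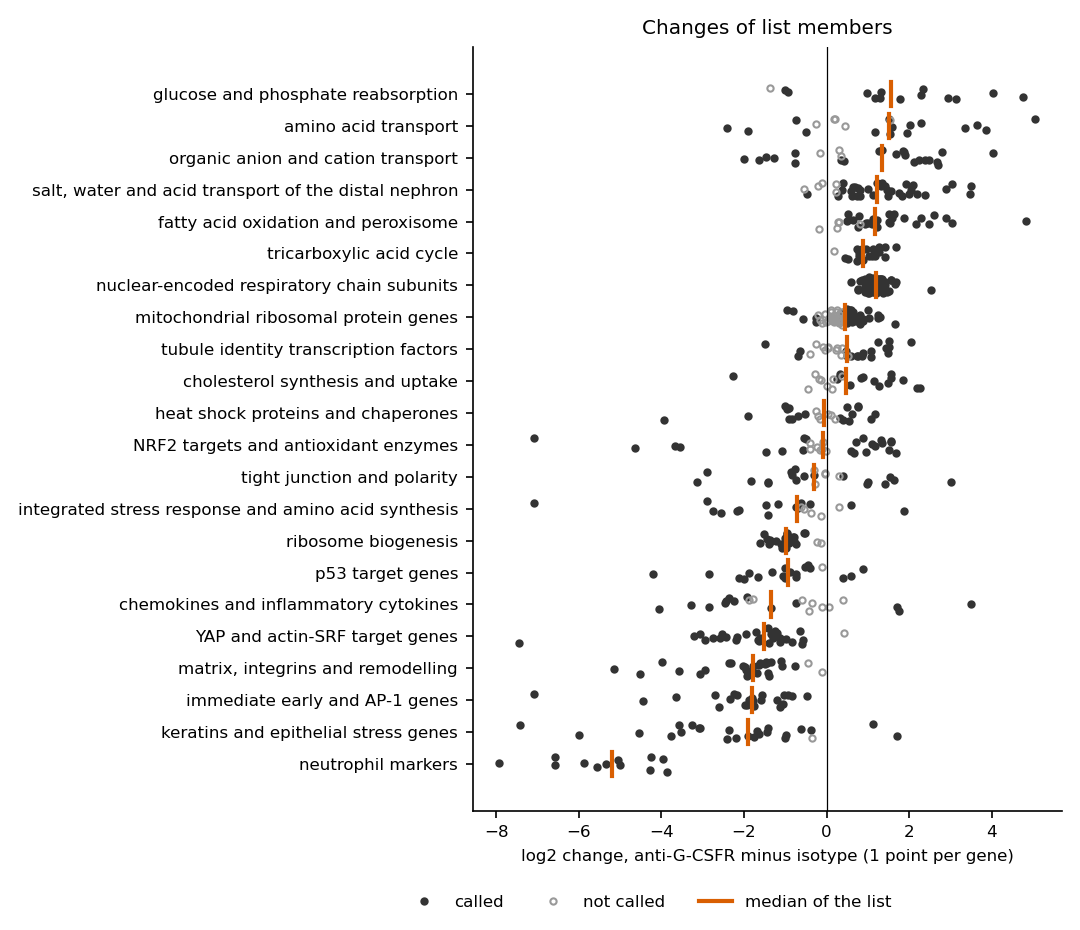
Log2 change, anti-G-CSFR minus isotype, of each measured gene of 22 lists (horizontal axis), 1 point per gene, filled where the gene was called and open where it was not, with an orange bar at the median of the list. Respiratory chain and tricarboxylic acid cycle genes form tight clusters above 0, immediate early, matrix and keratin genes spread below 0, and the transport, antioxidant, junction and chaperone lists hold called genes on both sides.

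Nuclear genes for mitochondrial energy supply rose together. All 77 of 77 respiratory chain subunit genes rose (median 1.19), among them Sdha and Ndufs1, catalytic subunits of complexes II and I, by 1.11 ± 0.126 and 1.19 ± 0.138. Sdha stood at 427, 437 and 403 CPM in the isotype kidneys and 915, 936 and 892 under anti-G-CSFR, with both groups tight. In the tricarboxylic acid cycle 20 of 21 genes rose, among them Idh2, an isocitrate dehydrogenase (1.67 ± 0.182); citrate synthase, Cs, was the exception (0.17 ± 0.0978, adjusted p = 0.145; called higher by DESeq2 and at −0.040 with library totals). Of 30 genes of fatty acid oxidation and peroxisomes, 25 rose and none fell (median 1.17), among them Acox2 (2.88 ± 0.216) and the fatty acid carrier gene Fabp3 (3.04 ± 0.249). Cpt1a, which controls the entry of fatty acids into mitochondria, did not pass (−0.19 ± 0.188, adjusted p = 0.401), except without kidney 4, when it was called lower (adjusted p = 0.0144).

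The rise was uneven within the mitochondrion. Genes of mitochondrial ribosomal proteins rose in 46 of 78 cases and fell in 5 (median 0.44), or rose in 18 with library totals as the scaling and in 30 without kidney 5 or without kidney 6. Mrps36 and Mrps18b, the members with the smallest p, changed by 1.65 ± 0.219 and −0.95 ± 0.147. Members go by symbol, and whether each, Mrps36 among them, is part of the mitochondrial ribosome was not checked. In kidneys 4, 5 and 6 the mean level of the list lay 0.11, −0.34 and −0.34 from sham, so isotype kidney 4 stood apart from the other two. Of the Slc25 carriers 25 of 39 rose and 4 fell; the succinate carrier gene Slc25a10 rose by 2.50 ± 0.182, whereas Slc25a24, a calcium-regulated ATP carrier, fell by −3.77 ± 0.629. Aminoacyl-tRNA synthetases, the enzymes that load amino acids onto tRNA, split by compartment: of the 17 whose symbol ends in 2, the naming of mitochondrial forms, 10 rose and none fell, and of the 16 others none rose and 14 fell (medians 0.37 and −0.80; 5 of the list rose with library totals as the scaling). This split was made after the values were seen. Cars and Vars, of the cytosolic enzymes for cysteine and valine, fell by −1.21 ± 0.143 and −1.56 ± 0.193.

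Glucose-making enzymes rose together with oxidation. In the list of gluconeogenesis, ketone and lactate metabolism 12 of 17 rose and 3 fell (median 1.73; 1 fell without kidney 5 or without kidney 8). G6pc (GRCm38 chromosome 11, 101367561 to 101377903), which releases free glucose, was at 24.2, 16.5 and 10.9 CPM in the isotype kidneys and 515, 587 and 333 under anti-G-CSFR (change 4.79 ± 0.448, adjusted p = 1.06e-05), and Fbp1 rose by 2.97 ± 0.256. The lactate exporter gene Slc16a3 fell by −2.39 ± 0.521. In glycolysis and hypoxia 11 of 26 rose and 7 fell (median 0.21; 7 rose with library totals). The uptake and trapping genes Slc2a1 and Hk2 fell (−1.56 ± 0.127 and −2.67 ± 0.729) and so did Adm, the vasodilator adrenomedullin (−2.26 ± 0.211). Among the 11 that rose were Bnip3, of mitochondrial clearance (1.94 ± 0.216), and Vegfa, the vascular growth factor (1.05 ± 0.151). Cholesterol synthesis rose in 13 of 22 genes and fell in 1 (median 0.47): Hmgcs1, which starts the pathway, and the carrier Stard4 rose by 2.18 ± 0.172 and 1.85 ± 0.135. Of cytochrome P450 genes 19 of 34 rose and 9 fell (median 1.11), with Cyp4a31 and Cyp2j5 at 2.45 ± 0.201 and 2.19 ± 0.197; members of this family are close copies and reads may be split between them.

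Transcription factors of tubule identity rose in 15 of 29 cases and fell in 3 (median 0.48; 5 fell with library totals). Hnf4a, a master factor of the proximal tubule, was at 357, 255 and 216 CPM against 824, 793 and 753 (change 1.52 ± 0.168), and Esrrg, a nuclear receptor that drives mitochondrial genes, rose by 1.25 ± 0.0927. Pax8, a factor of kidney development that is kept in adult tubules, fell by −1.48 ± 0.214, with 127, 226 and 260.4 against 77.6, 65.1 and 77.0 CPM. Of the vitamin D, calcium and hormone genes 12 of 19 rose and 3 fell (median 1.40). Kl, the FGF23 co-receptor and ageing factor klotho, rose by 2.44 ± 0.195. Cyp27b1, which makes active vitamin D, fell by −3.02 ± 0.762: it stood at 9.33, 65.9 and 49.4 CPM in the isotype kidneys against 1.12, 3.36 and 11.0, and kidney 4, far under the other isotype kidneys, was level with kidney 9. Cyp24a1, which breaks the hormone down, rose by 2.08 ± 0.551.

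The clock and glucocorticoid list had a median close to that of the whole table. In it 8 of 25 rose and 6 fell (median 0.08; 3 fell without kidney 5, 6, 8 or 9). Hlf and Tef, transcription factors driven by the clock, rose by 3.98 ± 0.263 and 2.09 ± 0.181, and Dbp, of the same family, by 2.43 ± 0.444. Hlf stood at 12.7, 6.33 and 5.99 CPM against 134, 149 and 116. The activator gene Arntl was at 11.7, 21.6 and 23.5 CPM in the isotype kidneys and 11.2, 2.01 and 3.33 under anti-G-CSFR (change −1.76 ± 0.577, adjusted p = 0.0185), with kidney 7 above the other two; the call was lost without kidney 5, 6, 8 or 9 (adjusted p = 0.0520, 0.0610, 0.0666 and 0.0663), as was that of Npas2, another activator gene, which also fell. Dbp, Arntl and Npas2 were picked with their values in view. The labels give no clock time of harvest, and its part in these values was not tested.

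Of the genes of the injured and repairing tubule, most regeneration factors fell, and the injury biomarkers went both ways. Of the regeneration factors 18 of 24 fell and 1 rose (median −1.44). Myc was at 77.4, 84.2 and 82.5 CPM against 5.68, 5.74 and 14.2 (change −3.26 ± 0.486, adjusted p = 0.000157), Ccn2, a secreted target of the growth regulator YAP, at 152, 547 and 498 against 43.7, 39.6 and 46.6 (−3.20 ± 0.426), and Sox9, which marks tubule cells in repair, at 22.7, 32.7 and 29.2 against 0.198, 1.04 and 3.33 (−4.24 ± 0.899). In Ccn2 isotype kidney 4 lay well below kidneys 5 and 6, and in all 3 genes the groups stayed apart. Wnt7b, a secreted growth signal, was the one that rose (0.84 ± 0.177). Of the injury biomarkers 9 of 22 fell and 5 rose (median −0.51), with 63.6% called against 63.5% of all genes. The falls numbered 4 without kidney 7 or without kidney 8, and 12 without kidney 9. The 5 that rose were Vnn1, Egf, Igfbp1, Igfbp7 and Cst3 (1.95, 4.02, 2.53, 0.37 and 0.42), of which Igfbp7 was not called without kidney 4, 7 or 8 and Cst3 without kidney 5; Egf is made by the healthy distal tubule and Vnn1, a pantetheinase, by the brush border. With library totals 3 rose.

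Keratin and epithelial stress genes fell in 22 of 25 cases and rose in 2 (median −1.90). Krt8 and Krt18, the keratin pair of simple epithelia, fell by −3.06 ± 0.383 and −2.35 ± 0.398, Anxa1, an annexin that restrains inflammation, by −2.41 ± 0.241, and Cryab, a small heat shock protein, by −1.90 ± 0.161. The 2 that rose were Evpl and Krt10 (1.70 ± 0.200 and 1.12 ± 0.245), of the plaque and keratin set of stratified epithelium. All 23 of 23 measured immediate early and AP-1 genes fell (median −1.80), against 32.0% of all genes. Out of 25 genes listed only these 23 were measured. The isotype kidneys by themselves could carry a gene past the filter of about 2 CPM, so the count is not read as support. The same limit holds for the keratin list, with 25 of 27 listed genes measured. The changes of the 23 genes ran from Dusp6 (−0.47 ± 0.107) to Fosl1. Dusp4 and Dusp5, phosphatases that switch off MAP kinases, were at −1.20 ± 0.152 and −4.45 ± 0.583. Of the AP-1 subunits, Jun was at 74.4, 87.1 and 95 CPM against 26.0, 21.6 and 39.1, Junb at 71.4, 39.4 and 42.6 against 6.67, 7.61 and 19.8 and Fos at 10.2, 8.85 and 7.64 against 1.72, 1.27 and 3.78. Fosl1 was near 0 in sham kidneys (0, 0 and 0 CPM), unlike Jun (26.9, 24.3 and 27.8 CPM).

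Genes of the actin skeleton, which respond to the coactivators of SRF and to YAP, fell in 29 of 30 cases, and none rose (median −1.51). Flnc, an actin crosslinker of muscle, was at 140.0, 172 and 218 CPM in the isotype kidneys and 0.727, 0.597 and 1.74 under anti-G-CSFR (change −7.44 ± 1.38). The widely expressed actin gene Actb fell by −1.61 ± 0.216, Cnn2 by −1.65 ± 0.187 and Amotl2 by −0.99 ± 0.112. The one gene of this list that was not called was Vil1, villin of the brush border (0.43 ± 0.197, adjusted p = 0.0760), which was called higher without kidney 4 (adjusted p = 0.000810) and by limma-voom. In matrix, integrins and remodelling 28 of 30 fell and none rose (median −1.79). Itga5, the fibronectin receptor subunit, fell by −3.06 ± 0.330, and Plat, the plasminogen activator, by −1.93 ± 0.194.

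Junction genes went both ways. 11 of 23 fell and 7 rose (median −0.30). Cldn3 was at 21.1, 24.7 and 26.2 CPM against 7.2, 5.44 and 7.41 (−1.84 ± 0.169), with Cldn1, Cldn4 and Cldn7 also lower (−3.14, −2.89 and −1.42). Among the 7 that rose were claudin genes for ion-selective pores of nephron segments: Cldn19 and Cldn16 of the thick ascending limb (1.62 and 1.54), and Cldn2 and Cldn10 of the proximal tubule and loop (1.42 and 3.02). In the EGF receptor list 7 of 15 fell and 3 rose (median −0.18): Egfr itself moved little (−0.64 ± 0.103, adjusted p = 0.000240), the ligand gene Egf, made in the distal tubule, stood at 29.0, 90.5 and 68.9 against 1277, 1085 and 690.5 CPM (4.02 ± 0.464), and the injury-induced ligand gene Hbegf fell (−1.34 ± 0.291). 

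**Figure D4:**
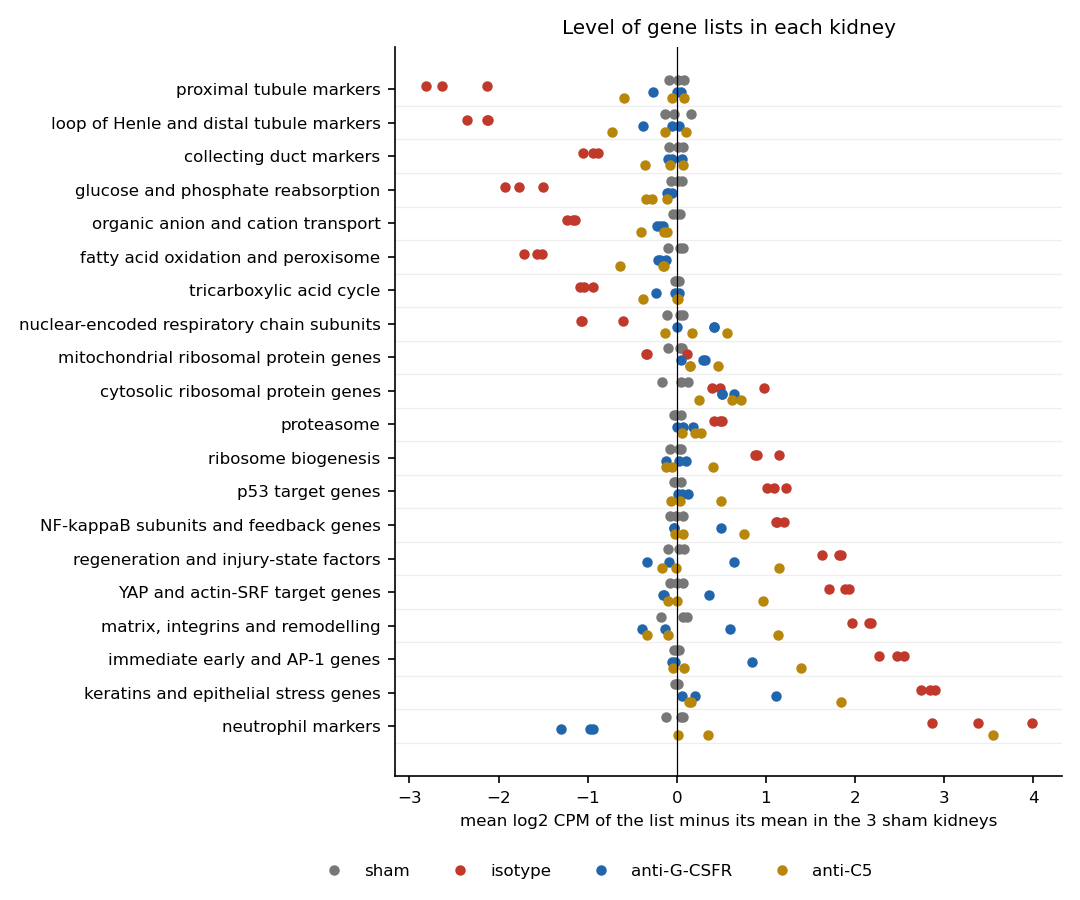
Mean log2 CPM of 20 gene lists in each of the 12 kidneys, minus the mean of the 3 sham kidneys (horizontal axis), with 1 point per kidney, coloured by group. Isotype kidneys (red) stand apart from the others in most lists, anti-G-CSFR kidneys (blue) lie near 0 in most but below sham in the neutrophil markers, kidney 9 is the blue point nearest the isotype kidneys in the keratin, immediate early and matrix lists, and the cytosolic ribosomal protein genes are above sham in all IRI kidneys.

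The inflammatory lists fell in part. Of the chemokines and cytokines 10 of 21 measured fell and 3 rose (median −1.33), and 5 fell without kidney 7 or without kidney 8. Out of 33 genes listed only these 21 were measured. The isotype kidneys by themselves could carry a gene past the filter of about 2 CPM, so the count is not read as support. Cxcl1 and Cxcl2, the mouse chemokines that call in neutrophils, were at 24.9, 13.3 and 16.8 and 4.11, 3.13 and 4.97 CPM in the isotype kidneys and at 1.19, 1.12 and 5.37 and 0.0661, 0.0746 and 1.13 under anti-G-CSFR. Kidney 9 was the highest treated kidney in both, and both calls were lost without kidney 7 or without kidney 8, and that of Cxcl1 also without kidney 4. Il34, a ligand of the macrophage receptor CSF1R, fell by −1.92 ± 0.286. Cxcl12, which holds leukocytes in bone marrow and tissue, rose by 1.77 ± 0.220, as did Ccl28 and Il15 (3.51 ± 0.608 and 1.70 ± 0.280). Il1b did not pass, at 13, 2.52 and 5.03 against 2.18, 1.86 and 1.97 CPM, but was called lower without kidney 10 or 11 and in the fit of the 6 compared libraries. Of the adhesion genes 13 of 16 measured fell and 1 rose (median −1.04). Out of 20 genes listed only these 16 were measured, so the same limit holds for this count. Itgam, an integrin subunit of neutrophils and monocytes, fell by −3.14 ± 0.523 and the widespread Itgb1 by −1.30 ± 0.176. Vascular P-selectin, Selp, was at 3.50, 3.69 and 4.91 against 0.132, 0.149 and 0.908 CPM.

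In the list of NF-kappaB subunits and feedback genes 15 of 18 fell and none rose (median −1.03), with the inhibitor gene Nfkbia at −1.16 ± 0.144 and the subunit gene Rela at −1.43 ± 0.196. In the list of receptor and JAK-STAT signalling 17 of 28 fell and 4 rose (median −0.60). Socs3, which STAT3 switches on and which brakes G-CSFR signalling, was at 52.9, 30.9 and 30.7 CPM against 2.31, 2.83 and 16.7 and lost its call without kidney 4, 7 or 8; Stat3 fell by −1.44 ± 0.320 and Il4ra by −1.49 ± 0.175. Cebpa, a factor of granulocyte development that other cells also use, rose by 1.14 ± 0.180. In the interferon list 2 of 23 fell and 5 rose (median 0.13), with 30.4% called against 63.5% of all genes. Without kidney 4, 8 rose, and 3 rose without kidney 8 or with library totals. Rsad2 rose by 0.64 ± 0.0939 (adjusted p = 0.000143) and Isg20 fell by −1.93 ± 0.327.

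Of the complement genes 7 of 22 rose and 3 fell (median −0.08). The share that rose was close to the 31.5% of all genes, and 45.5% were called, against 63.5% of all genes. Without kidney 9 or with library totals 5 fell. C8a, a part of the membrane attack complex, was at 1.67, 1.11 and 1.47 CPM against 26.8, 22.3 and 13.6 and Cfb, factor B of the alternative pathway, at 165, 142 and 120.0 against 359, 373 and 433. C5ar1, the receptor for C5a, fell from 10.6, 7.74 and 9.24 to 1.06, 2.16 and 3.48 CPM (change −2.05 ± 0.564, adjusted p = 0.00749). Hc, the mouse C5 gene, and Csf3 had no entry in the table. C3, the central component, was at 85.5, 37.6 and 34.1 CPM in the isotype kidneys and 77.9, 79.4 and 439 under anti-G-CSFR (1.92 ± 0.618, adjusted p = 0.0172), and without kidney 9 it was not called (0.61, adjusted p = 0.175); nor was it without kidney 5 or 6 or in the fit of the 6 compared libraries. MHC genes rose in 7 of 17 cases and fell in 2 (median 0.25), with 52.9% called against 63.5% of all genes. Without kidney 9, 5 fell, with library totals 4, and without kidney 5, 7 or 8 only 1. The rises were of class II and its partners, such as H2-DMb1 (1.40 ± 0.289) and H2-Ab1 (1.29 ± 0.288), which present peptides to helper T cells; the class I gene H2-K1 did not pass (−0.17 ± 0.111), but was called lower without kidney 9 and with library totals.

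Markers of other cells of the kidney were taken next. Monocyte and macrophage markers fell in 7 of 19 cases and rose in 2 (median −0.18; none rose without kidney 5, 6 or 8, 1 without kidney 7 or 9 or with library totals, and 4 without kidney 4): Cd68 and Fcgr3 fell by −2.20 ± 0.272 and −1.49 ± 0.263, while Adgre1 and Cx3cr1 of resident macrophages did not pass (0.50 ± 0.235 and 0.80 ± 0.513), except that both were called higher without kidney 4 and by limma-voom. In this monocyte and macrophage list 47.4% were called, against 63.5% of all genes. Of 16 endothelial markers 8 fell (median −0.38), with Eng at −0.88 ± 0.129 and Cdh5 at −0.72 ± 0.128. Of the podocyte markers 4 of 14 rose and 4 fell (2 fell without kidney 7), with 57.1% called against 63.5% of all genes. Clic3 and Col4a4, a basement membrane collagen, rose by 1.67 ± 0.207 and 1.08 ± 0.152, and Wt1, a podocyte transcription factor, fell by −0.74 ± 0.177. Of fibroblast and smooth muscle markers 10 of 15 fell and 1 rose (median −1.35). The contractile genes Tagln and Acta2 fell by −3.07 ± 0.352 and −2.75 ± 0.327, but the smooth muscle myosin gene Myh11 did not pass (−0.30 ± 0.196) except with library totals. Only 2 of 21 lymphocyte markers were in the table: Ighm rose (1.76 ± 0.315) and Jchain did not pass (1.02 ± 0.484), though it was called higher without kidney 1 and in the fit of the 6 compared libraries, and the listed markers of T, B and NK cells had no entry. Of the red cell and platelet markers Pf4 fell (−1.47 ± 0.337), Itga2b rose (1.30 ± 0.266), and the haemoglobin genes did not pass.

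Coagulation genes went both ways, 12 of 22 down and 5 up (median −1.23). F5, coagulation factor V, was at 3.56, 3.13 and 3.50 CPM against 12.9, 12.1 and 12.6 (1.88 ± 0.137) and Thbd, the endothelial anticoagulant thrombomodulin, at 107, 160.4 and 139 against 38.9, 35.1 and 46.4 (−1.76 ± 0.175). None of the 3 fibrinogen genes passed the test with all kidneys in edgeR, and all 3 passed without kidney 9; Fgb also passed by limma-voom. Fga was at 273, 371 and 319 CPM in the isotype kidneys and 32.1, 24.6 and 491 under anti-G-CSFR, and Fgg at 200.1, 249 and 214 against 13.5, 15.4 and 461. Kidneys 7 and 8 lay far below the isotype kidneys and near the sham values of 51.4, 60.7 and 36.6 CPM for Fga, while kidney 9 lay above all of the isotype kidneys. Without kidney 9 the changes were −3.47 for Fga, −5.64 for Fgb and −3.91 for Fgg (BH-adjusted p = 0.000227, 0.00137 and 0.000909).

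Genes of cell stress and death fell, with exceptions. Of the p53 targets 16 of 20 fell and 3 rose (median −0.94): Cdkn1a, the cell cycle brake p21, was at 120.5, 230.1 and 261 CPM against 9.64, 9.10 and 14.7 (−4.20 ± 0.550), Phlda3 and Aen fell by −1.66 ± 0.175 and −1.33 ± 0.162, and Ccng1, Rrm2b and Ei24 rose. In the death list 14 of 25 fell and 5 rose (median −0.45; 1 rose with library totals and 3 without kidney 6 or 7). The necroptosis genes Ripk3 and Mlkl fell by −2.59 ± 0.443 and −3.24 ± 0.452, the pore-forming Bak1 by −1.42 ± 0.141 and the protective Bcl2l1 by −1.03 ± 0.116. Of the ferroptosis genes, Gpx4, which repairs lipid peroxides, rose (1.33 ± 0.239), while Acsl4, which supplies the lipids that peroxidise, fell (−1.45 ± 0.272). The cystine importer gene Slc7a11, also in this list, fell furthest of its members (−7.07 ± 0.796), on few anti-G-CSFR reads. Cell cycle genes mostly did not pass, 4 up and 3 down of 29: Ccnd3 rose (0.90 ± 0.0938), Cdk6 fell (−1.65 ± 0.249), and Mki67, of dividing cells, was at 5.56, 8.85 and 8.28 against 7.00, 7.09 and 4.77 CPM.

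The antioxidant list went both ways: 13 of 29 rose and 9 fell (median −0.08). Srxn1, Hmox1, Txnrd1 and Gsta1, which stress induces through NRF2, fell by −3.68 ± 0.366, −3.55 ± 0.529, −1.46 ± 0.171 and −4.63 ± 1.16. The peroxidase and dismutase genes Gpx1, Cat and Sod2 rose by 1.57 ± 0.241, 1.1 ± 0.137 and 1.5 ± 0.153, and Gstm1 by 1.33 ± 0.126. Gclm, another NRF2 target, did not pass (−0.08 ± 0.111) except with library totals. In the integrated stress response 13 of 20 fell and 2 rose (median −0.72), with Atf4, its central factor, at −1.18 ± 0.123, Asns, asparagine synthetase, at −2.75 ± 0.351, and Shmt2, a mitochondrial folate enzyme, rising by 1.89 ± 0.156. Of the 24 chaperones 9 rose and 9 fell (median −0.07), with 75.0% called against 63.5% of all genes. Among those that fell were the cytosolic Hspb1, by −3.94 ± 0.603, Hsp90aa1 by −1.0 ± 0.156 and Bag3 by −0.97 ± 0.141, and among those that rose were Calr of the endoplasmic reticulum, by 1.08 ± 0.175 and Hsp90b1 by 0.77 ± 0.125, with Hspe1 of mitochondria (1.18 ± 0.311).

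Genes of ribosome assembly and of the proteasome fell in most cases. Of the ribosome biogenesis genes 23 of 25 fell and none rose (median −0.98), among them the nucleolar helicase gene Ddx21 (−1.61 ± 0.216) and Nob1 (−0.91 ± 0.106). Of the proteasome subunits 20 of 31 fell and none rose (median −0.38), with Psmd11 at −1.05 ± 0.137 and Psmd7 at −0.60 ± 0.0804, most of them by less than 1.5-fold. Genes of the cytosolic ribosome itself did not follow: 1 of 83 rose (Rpl3l, the muscle form, 1.01 ± 0.293), 4 fell, including Rpl4 (−0.39 ± 0.121, not called without kidney 7), and the median was −0.12; with library totals as the scaling 27 fell. As single libraries were left out, between 0 (without kidney 7) and 9 (without kidney 5) fell, and 11 rose without kidney 4. Their mean level lay 0.51, 0.64 and 0.50 above sham in kidneys 7, 8 and 9 and 0.98, 0.40 and 0.49 in kidneys 4, 5 and 6, so these genes were high in all 6 IRI kidneys. Of the iron genes 6 of 17 rose and 5 fell (median 0.11), shares close to the 31.5% and 32.0% of all genes. The zinc and iron importers Slc39a8 and Slc39a14 went in opposite directions (1.82 ± 0.237 and −1.18 ± 0.123).

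Genes outside the protein-coding set were counted by their type in the annotation. Of the long intergenic non-coding RNAs, 75 of 118 rose and 12 fell, and of the antisense genes 47 of 87 rose and 10 fell, against 3765 and 4087 of 12390 protein-coding genes. The strand setting is not given, so the antisense counts may hold reads of the partner gene. Numbered zinc finger genes, a set taken by symbol and not by function, rose in 107 of 332 cases and fell in 62 (median 0.14). With library totals 63 rose. The share that rose was close to the 31.5% of all genes, and 50.9% were called, against 63.5% of all genes. Zfp52 and Zfp598 changed by −1.66 ± 0.202 and −0.93 ± 0.0939. 

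The 6 kidneys were not equally close to their group. Among the 1330 genes that fell by more than 2-fold, kidney 9 was the highest of the 3 anti-G-CSFR kidneys in 1078 (81.1%), and their median level was −0.13, −0.09 and 0.29 from the sham mean in kidneys 7, 8 and 9 on the log2 scale, against 1.41, 1.59 and 1.67 in kidneys 4, 5 and 6. Among the 1951 that rose by more than 2-fold, kidney 9 was the lowest of its group in 70.0%, and kidney 4 the highest of the isotype group in 73.6%. So in most of these genes kidney 9 stood towards the isotype group and kidney 4 towards the anti-G-CSFR group. Kidney 4 did not do so in every list. The chemokine and cytokine list lay 2.03 above the sham mean in kidney 4, against 1.26 and 1.22 in kidneys 5 and 6 (log2). In Havcr1 and Timp1, given below, kidney 4 was also the highest isotype kidney. In the genes that rose, kidney 4 lay 0.42 above its group mates and kidney 9 lay −0.27 from its own (medians, log2), and in those that fell the values were −0.23 and 0.40. These genes were chosen from the same 6 kidneys and the shares are a description. In 579 genes (4.41%) kidneys 7 and 8 lay below all isotype kidneys and kidney 9 did not; with kidney 7 or kidney 8 as the exception this was so in 260 and 178. Havcr1 was at 5672, 3089.8 and 3032 CPM in the isotype kidneys and 17.2, 44.3 and 345 under anti-G-CSFR, against 3.35, 14.3 and 3.08 in sham kidneys (change −4.86 ± 1.69, adjusted p = 0.0266; without kidney 4, 7 or 8 adjusted p = 0.0633, 0.0696 and 0.0822). Lcn2 was at 1018, 2849 and 2773 against 14.3, 10.8 and 155 and Timp1, an inhibitor of metalloproteinases, at 103, 42.1 and 46.8 against 0.462, 1.34 and 14.7. In all 3 genes kidney 9 was the highest of the treated kidneys, yet below every isotype kidney, and Timp1 was not called without any one of kidneys 4 to 8.

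Fat marker RNA differed between kidneys of both groups. Adipoq, the adipocyte hormone adiponectin, was at 5.56, 2.01 and 2.67 CPM in sham kidneys, 6.78, 0.614 and 1.02 in isotype kidneys and 0.198, 7.01 and 14.1 under anti-G-CSFR, and Cfd, the adipocyte protease adipsin that also starts alternative complement, at 30.2, 3.32 and 6.43 against 0.264, 23.9 and 49.5. The fat marker was thus highest in kidneys 9, 8 and 4 and near 0 in kidney 7, across both groups. Its part in the complement values, including C3, was not tested. These genes were named after their values were seen. Without kidney 9, 4159 genes were called higher and 3951 lower.

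**Figure D5:**
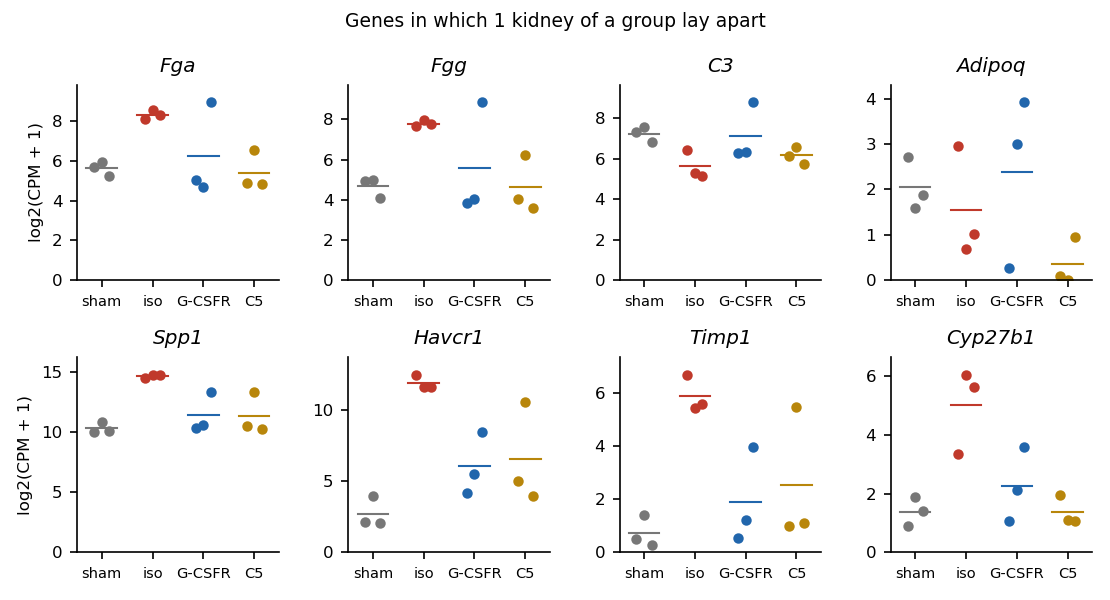
Levels of 8 genes in which 1 kidney of a group lay apart, as log2(CPM + 1) on the vertical axis, by group on the horizontal axis (sham, isotype, anti-G-CSFR, anti-C5), with 1 point per kidney and a bar at the group mean. Kidney 9 is the highest anti-G-CSFR point in every panel; in Fga, Fgg and C3 it lies above all isotype points, and in Spp1, Havcr1 and Timp1 between the other treated kidneys and the isotype kidneys.

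Set beside the other groups, the anti-G-CSFR kidneys differed in no single gene from sham or anti-C5 kidneys by the edgeR test. Against anti-C5 no gene was called by edgeR, with 207 of 13124 at an unadjusted p under 0.05; limma-voom also called none, and DESeq2 called 2, the neutrophil genes Cxcr2 and S100a8, both lower under anti-G-CSFR (−5.53 and −5.12, DESeq2 BH-adjusted p = 0.0149 for each). Cxcr2 was at 0.353, 8.46 and 1.08 CPM in kidneys 10, 11 and 12, where kidney 11 stood apart. Against sham no gene was called by edgeR, with 778 at an unadjusted p under 0.05; limma-voom called none and DESeq2 1, Spink8 (0.87, DESeq2 BH-adjusted p = 0.00355), a protease inhibitor gene. With the 6 libraries of the 2 groups alone, 41 genes were higher than in sham and 2 lower (edgeR); 23 of these 43 were cytosolic ribosomal protein genes, all higher, and the 2 lower genes were the calprotectin gene S100a9 (−2.11, BH-adjusted p = 0.0444) and Lpin1 (−0.49, adjusted p = 0.0444). A count of 0 does not show that the kidneys were alike. As a description, the groups did not overlap in 2411 genes (18.4%) against sham and in 562 (4.28%) against anti-C5. The sham mice had received no antibody, so antibody and surgery cannot be told apart there.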

How the data were processed

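RNA of 12 whole kidneys was read as 100 bp single-end reads from strand-specific libraries, per the labels' protocols. The submitters' processing notes name TopHat2 2.1.0, Bowtie2 2.2.5, featureCounts and the build GRCm38.p4. The version, strand setting and annotation used in counting were not given in the sources used here. As deposited, the values are unnormalised read counts, 1 row for each of 13124 Entrez genes. The lowest third-highest CPM of a gene was 2.01, so, read from the values, genes under about 2 CPM in 3 libraries are not in the deposited counts. In any list a gene high in 1 group alone could thus enter through that group. Totals ran from 13200930 to 16324215 per library.

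Symbols were found for 13074 genes in the RefSeq table of GRCm38.p6, and positions are GRCm38 (GENCODE vM21), counted from 1. Groups came from the labels. No 2 kidneys of a group agreed within sampling noise (chi-square per degree of freedom 5.45 to 65.3), and all ran in 1 lane. The test was the quasi-likelihood test of edgeR 4.0.16 under R 4.3.3 (TMM factors, robust quasi-likelihood fit of all 12 libraries, 8 residual degrees of freedom, filterByExpr, which removed 0 genes), called at a BH-adjusted p below 0.05. TMM factors enter the CPM values. The test was checked on simulated data in which far fewer genes changed than were called here. That check does not cover changes as widespread as these. The comparison, the 55 gene lists and the rule for named genes were chosen with earlier results of these data known. By that rule the text names the 10 largest rises and falls, the 5 smallest p and the 5 largest CPM differences each way (called, groups not overlapping, mean log2 CPM of 1 or more), the 2 smallest p of each list, and Csf3r, C5ar1, Csf3 and Hc; other list members were named after their values were seen, and some genes that the rule names are not reported here. Lists are described by counts and medians, with no test. As alternatives, scaling used RLE factors, upper-quartile factors or library totals; the others were a filter of 5 CPM in 3 libraries or none, DESeq2 1.42.0, limma-voom (limma 3.58.1), only the 6 compared libraries, no robust option, a test against 1.5-fold and each library left out.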

Additional observations from a re-analysis of the deposited data

How the results depend on the processing

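The counts of genes called higher and lower stayed within 1.5 times their values of 4137 and 4197 under the other scalings, the other filters, DESeq2, limma-voom, the fit of 6 libraries and the fit without the robust option. Against a change of 1.5-fold, 2068 were called higher and 1487 lower, since that test asks for a larger change. With each of the 12 libraries left out in turn, 3629 to 4385 were called higher and 3583 to 4327 lower, and 0 against anti-C5 and against sham. DESeq2 called 2 genes against anti-C5 and 1 against sham, and the 6 compared libraries alone gave 43 against sham; the cause was not tested. With library totals 35.87% of calls were higher, in place of 49.64%. Of the 8334 calls, 7180 or more were also made in each alternative but the 1.5-fold test (3555), and all of those kept their direction.

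Of 261 genes followed one by one, 214 kept their direction and their side of the threshold in every alternative that gave them a value; 71 single values lost the call and 21 gained one. Opposite signs were seen in genes that were not called: Cfd at −0.51 with limma-voom, and Cs at −0.040 and Umod at −0.18 with library totals. As single kidneys were left out, the change ran from −0.14 (without kidney 9) to 2.33 in Cfd, from −3.91 (without kidney 9) to 0.11 in Fgg and from −0.12 (without kidney 4) to 0.17 in Umod; in Fgg it was called without kidney 9. No paired analysis was possible because each kidney number occurs in 1 group only. Precision is limited by 3 kidneys a group and by low counts where a gene is near 0; the filter on the deposited table leaves genes under about 2 CPM not analysed here.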

Other observations

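Some families outside the lists stood out on reading the table; they were picked after their values were seen, so their counts are descriptions beside the 31.5% of all genes that rose and the 32.0% that fell. All 9 measured tubulin genes, of the microtubule subunits, fell, with a median log2 change of −1.85. Tubb6 stood at 66.4, 81.9 and 89.6 CPM in kidneys 4, 5 and 6 and at 3.83, 4.92 and 9.38 in kidneys 7, 8 and 9 (log2 change −3.72 ± 0.635, SE), and Tuba1a at 96.0, 108 and 109 against 16.6, 16.9 and 31.0 (−2.28 ± 0.358). Both metallothionein genes in the table, which bind zinc and copper, fell: Mt1 from 554, 1166 and 1111 to 61.3, 88.6 and 104 CPM (−3.48 ± 0.404) and Mt2 from 499, 1025 and 979.8 to 19.2, 31.6 and 66.3 (−4.42 ± 0.715). In both, isotype kidney 4 was the lowest of its group and kidney 9 the highest of the treated kidneys. Akap12, a scaffold of protein kinase A, was at 207, 879 and 998 CPM against 14.9, 19.1 and 27.8 (−5.08 ± 0.589).

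Of the 10 measured UDP-glucuronosyltransferase genes, whose enzymes tag drugs and hormones for excretion, 9 rose and none fell; several are close copies that share exons, so their counts are uncertain one by one. Of 19 aldehyde dehydrogenase genes, 14 rose and 1 fell. All 6 genes looked at for tyrosine breakdown and biopterin recycling rose (median 2.44). Hgd, which opens the ring of homogentisate, was at 104, 47.2 and 37.2 CPM in the isotype kidneys and 559.7, 506 and 447 under anti-G-CSFR (3.00 ± 0.338), and Gstz1 and Fah, the next enzymes, rose by 2.61 ± 0.282 and 2.26 ± 0.188. Of the fructose route, Sord rose by 2.73 ± 0.238 and Khk by 3.02 ± 0.266. Ghr, the growth hormone receptor, rose by 2.1 ± 0.231. In each of the 11 genes named in these paragraphs the groups did not overlap.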
